A study of Mus musculus with 12 samples.

Results

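The 6 RNA-seq libraries of mouse embryonic stem cells that overexpress Tnrc6a were compared gene by gene, 3 from cells labelled Trim71-/- and 3 from cells labelled as the control genotype, out of 12 libraries in the series. All genes entered the comparison: 20529 were listed and 20486 were tested. Every group carried the 129S6/SvEvTac background, stable FLAG-Cas9 with blasticidin resistance and the yGlob GFP_5xT71BS reporter, and grew on gelatin in serum with LIF. The 4 groups of 3 were Tnrc6a Ctrl and Tnrc6a Trim71-/-, both tagged as overexpressing Tnrc6a, and Cas9 Ctrl and Cas9 Trim71-/-. The Cas9 groups were used here to ask where the Trim71-/- difference was not the same as with Tnrc6a. The labels name neither the deleted part of Trim71 nor a batch, and they do not say whether a genotype is 1 clone, so the cell line and the genotype cannot be told apart. Replicates are wells of triplicate cultures, and the p-values measure the spread between those wells. Groups were taken from the titles. An input-RNA line in the labels names HA-AVI-Tnrc6a with Ago2-/- in the 3 Tnrc6a Ctrl libraries and HA-AVI-Tnrc6a with Upf1-/- in the 3 Tnrc6a Trim71-/- libraries, which conflicts with the titles, and every direction below rests on the titles.

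Trim71 (LIN41) is a TRIM-NHL protein that binds hairpins in mRNAs and lowers their translation or stability, and it is itself a classic let-7 target. Tnrc6a (GW182) is the scaffold that links Argonaute to the deadenylases that shorten poly(A) tails, and the series title asks how separate silencing routes meet on it. Stem cells in serum and LIF are a mixture in which most cells hold a naive or formative pluripotent state, a few drift towards primitive endoderm (the Gata6 lineage that makes the yolk sac's basement membrane), and a few pass through a 2-cell-like state marked by Zscan4.

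Levels below are in CPM, each gene's reads scaled to a fixed library size, with trimmed mean of M values factors. Log2 fold changes are Trim71-/- over control within Tnrc6a, ± standard error. They come from edgeR's quasi-likelihood test with Benjamini-Hochberg adjustment over all genes. Each standard error is approximate, back-calculated as the absolute log2 value divided by the square root of the test's F value. A gene is called when its adjusted p is under 0.05. Trim71 RNA stood at 254, 261 and 277 CPM in the control libraries and at 237, 233 and 251 CPM in the Trim71-/- libraries, a log2 fold change of -0.14 ± 0.04 (edgeR adjusted p = 0.0076). Its transcript was thus still present in every Trim71-/- library, at a 1.10-fold lower mean, and the call was lost without Tnrc6a Ctrl replicate 3 (adjusted p = 0.079). Ccr4, a chemokine receptor gene that lies next to Trim71 on chromosome 9 (GRCm38), rose from 0.974, 0.899 and 0.796 CPM to 25.8, 22.7 and 24.4 CPM, a fold of 27.2. It had the largest rise among called genes of at least 20 CPM whose libraries did not overlap, where predicted genes with placeholder names were skipped. On the other side of Trim71, Cnot10 was not called at 104 and 97.5 CPM. Beyond Ccr4, Glb1 (-0.24 ± 0.06) and Tmppe (-0.29 ± 0.07), which share exons on the same strand, were lower by far less than Ccr4 rose.

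Tnrc6a was at 3319, 3436 and 3197 CPM in control libraries and at 3477, 3684 and 3704 CPM in Trim71-/- libraries, a log2 fold change of 0.13 ± 0.04. That call was lost without Tnrc6a Ctrl replicate 1 or 3 or without Tnrc6a Trim71-/- replicate 2 (adjusted p of 0.063, 0.051 and 0.11). Ago2, which the input line of the control libraries calls deleted, was at 280 ± 37.4 CPM there (SD, n = 3) and at 237 ± 15.3 CPM in Trim71-/- libraries, and it was not called (adjusted p = 0.11). It was called lower with DESeq2 (adjusted p = 0.035), with a replicate block (adjusted p = 0.00088) and without Tnrc6a Ctrl replicate 1 (adjusted p = 0.033). Upf1, which the other input line calls deleted, was higher in the Trim71-/- libraries, at 232, 229 and 228 CPM against 166, 156 and 159 CPM. Upf1 lies on chromosome 8, and its log2 fold change was 0.52, beside a median of 0.51 over that chromosome.

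Of the 20486 genes tested, 8005 were called, which is 39.1%: 4104 were higher (20%) and 3901 lower (19%). These shares are the background for every list count below, and no list was tested as a set. The median over all genes tested was 0.00, and the libraries of the 2 groups did not overlap for 10116 genes (49.4%). Large differences were fewer. At least 2-fold rises were seen for 471 called genes (2.3%) and at least 2-fold falls for 686 (3.35%). At 8-fold, 19 genes had risen (0.0927%) and 31 had fallen (0.151%). At an unadjusted p under 0.05 there were 9478 genes (46.3%). Total counts ran from 24303863 to 28372422 per library. Protein-coding genes were called in 45.4% of 15143 cases, long intergenic RNAs in 33.6% of 488, processed pseudogenes in 18.6% of 3185 and small nucleolar RNAs in 5% of 120.

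Whole stretches of chromosome moved together. For 670 chromosome 8 genes at 5 CPM or more, the median was 0.51 on the log2 scale (1.43-fold), and the Trim71-/- libraries stood at 0.51, 0.50 and 0.50 against the mean of the control libraries, which stood at 0.00, 0.00 and 0.00. Every other chromosome with over 15 such genes had a median between -0.04 and 0.07. Of 599 protein-coding chromosome 8 genes, 541 were higher and 16 lower, while 11 of 54 processed pseudogenes on the same chromosome were higher, with a median of 0.06. Chromosome 8 held 674 of the 4104 genes called higher, and without it 3430 higher and 3864 lower remained.

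A shorter block lay on chromosome 10. Between 25 and 50 Mb (GRCm38), 52 of 55 protein-coding genes of at least 5 CPM were higher and none was lower. Their median was 0.70 (1.62-fold), with the 3 Trim71-/- libraries at 0.67, 0.65 and 0.66, and it was 0.66 in the comparison with Cas9. Processed pseudogenes in the block did not share it, with 3 of 8 higher and a median of -0.05. The flanks formed steps: 13 of 15 genes were higher from 20 to 25 Mb (median 0.29), 32 of 56 were lower from 50 to 65 Mb (-0.19), 13 of 17 were higher from 65 to 75 Mb (0.40), and the median was -0.05 over the 344 genes beyond. Those 344 were not uniform: from 100 to 105 Mb 9 of 11 were lower, with a median of -1.63 (-3.50 with Cas9). Genes of the block included Lin28b (15.6 ± 0.60 to 26.4 ± 1.68 CPM), which blocks let-7 processing, the histone deacetylase Hdac2 (98.1 ± 5.04 to 166 ± 4.34 CPM), the kinase Fyn (15.4 ± 0.71 to 29.2 ± 0.54 CPM), Marcks (22.3 ± 0.98 to 40.8 ± 1.44 CPM), Foxo3 (122 ± 5.57 to 171 ± 7.85 CPM) and the surface protein Cd24a (29.0 ± 1.20 to 74.0 ± 1.18 CPM). Genes of chromosome 8 and of chromosome 10 from 20 to 75 Mb are named as such below, since their own rise and that of their neighbours cannot be told apart. Without both, 3316 genes were higher and 3820 lower.

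**Figure D1:**
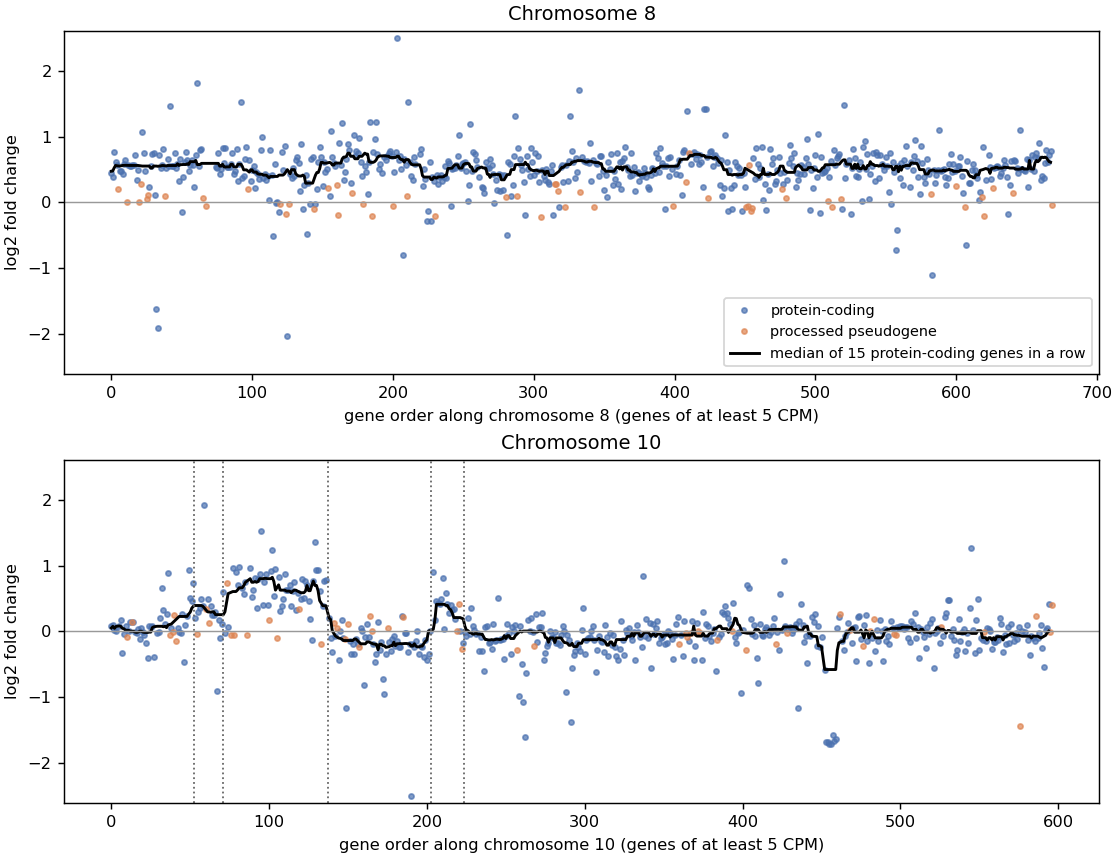
Log2 fold change of Tnrc6a Trim71-/- over Tnrc6a Ctrl (vertical axis, drawn within ±2.5, points beyond set at the edge) for genes of at least 5 CPM in their order along chromosome 8 (top) and chromosome 10 (bottom). Blue points are protein-coding genes, orange points are processed pseudogenes, the black line is the running median of 15 protein-coding genes and the dotted lines mark 20, 25, 50, 65 and 75 Mb. Protein-coding genes sit near 0.53 along all of chromosome 8 and near 0.70 in the second marked stretch of chromosome 10, and pseudogenes sit near 0.

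Of the 12 largest falls among named genes of at least 20 CPM, 9 were genes of primitive endoderm and its matrix. Of 14 endoderm transcription factors tested, 10 were lower and none higher, with a median of -1.48. Gata4 was at 50.0, 49.2 and 44.7 CPM in control libraries and at 5.81, 6.30 and 7.61 CPM in Trim71-/- libraries. That was a log2 fold change of -2.87 ± 0.08, or 7.32-fold lower (adjusted p = 6.3e-29), for a GATA factor that switches on yolk sac genes. Gata6, which commits inner cell mass cells to the lineage, went from 33.5, 38.0 and 34.4 CPM to 5.27, 5.15 and 4.85 CPM (-2.79 ± 0.09). Foxq1, a forkhead factor, fell most of the list, from 23.5, 22.4 and 21.7 CPM to 1.05, 1.21 and 0.63 CPM (23.1-fold). In none of these genes did the groups come near each other. Sox17 fell 10.7-fold to 1.16 ± 0.19 CPM, Sox7 3.96-fold, Foxa2 3.23-fold and Foxa1 2.42-fold, while Foxa3, Hhex, Hnf4a and Klf15 were not called. In bulk RNA, fewer endoderm cells and less of these RNAs per cell cannot be told apart.

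The products of that lineage fell with its factors. Of 22 tested genes for uptake receptors and secreted proteins of the endoderm, 14 were lower and 4 higher (median -0.75). Cubilin (Cubn), the receptor that with amnionless takes up proteins in visceral endoderm, had the largest of those 12 falls, from 35.2, 30.2 and 44.0 CPM to 0.40, 0.22 and 0.20 CPM, or 131-fold (adjusted p = 7.5e-10). Its partner Lrp2 (megalin) went from 64.1, 55.2 and 75.3 CPM to 6.20, 4.71 and 8.95 CPM (9.86-fold). Both remained measurable, and the spread among Lrp2 libraries was far below the difference between groups. Dab2, their endocytic adaptor, fell 4.39-fold, and Lrpap1, the chaperone of this receptor family, fell from 244 ± 7.23 to 94.1 ± 2.78 CPM. The proteoglycan Srgn (serglycin), on chromosome 10 between 50 and 65 Mb, fell from 18.1 ± 1.54 to 0.21 ± 0.04 CPM, Klb (beta-Klotho, a co-receptor of endocrine FGFs) from 10.3 ± 0.74 to 0.34 ± 0.19 CPM, and the receptor Pdgfra, an early mark of the lineage, from 21.2 ± 0.28 to 3.92 ± 0.34 CPM. For the calcium-binding S100g, 40, 66 and 34 reads were counted in control libraries and 1, 0 and 0 in Trim71-/- libraries (adjusted p = 8.4e-11). The risers were Trf and Apoe, Fst and the low Apom (0.36 to 0.79 CPM), and they numbered 2 rather than 4 without Tnrc6a Trim71-/- replicate 1 or 2.

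Basement membrane genes showed 15 of 23 lower and none higher (median -0.45). Lama1, the laminin chain of the embryo's earliest basement membrane, went from 288, 258 and 314 CPM to 49.6, 53.9 and 65.2 CPM (-2.35 ± 0.11, adjusted p = 1.2e-07). Its partner Lamb1 went from 227, 209 and 214 CPM to 44.7, 45.3 and 48.0 CPM (-2.24 ± 0.05), while Lamc1, the third chain of the trimer, fell 1.68-fold from a higher level of 549 ± 31.6 CPM. The type IV collagens Col4a1 (392 ± 26.8 to 128 ± 2.2 CPM) and Col4a2 (192 ± 18.8 to 51.3 ± 1.91 CPM) fell 3.06-fold and 3.74-fold although they lie on chromosome 8, where the median gene rose. Sparc, a collagen-binding glycoprotein, fell from 603 ± 33.8 to 269 ± 4.01 CPM. Serpinh1, the collagen chaperone HSP47, fell 2.48-fold and P4ha2, a collagen prolyl hydroxylase, 2.29-fold. Nid1, which bridges laminin and collagen, did not pass the test at 170 ± 7.21 and 171 ± 6.38 CPM.

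**Figure D2:**
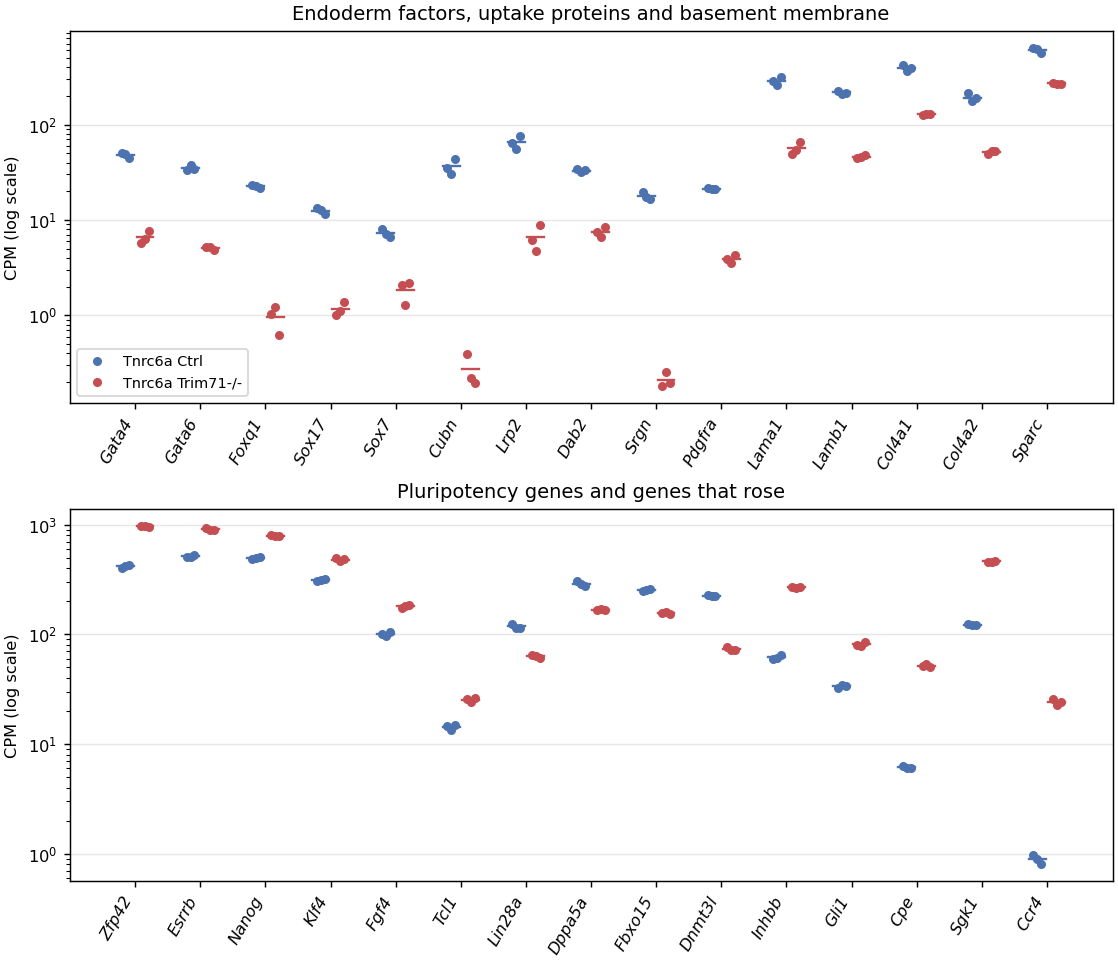
CPM on a log axis in each of 3 Tnrc6a Ctrl (blue) and 3 Tnrc6a Trim71-/- (red) libraries, with a bar at each mean. In the top panel each of the 15 endoderm and matrix genes is lower in every Trim71-/- library, down to 0.18 CPM for Srgn, and in the bottom panel naive genes and others are higher while Lin28a, Dppa5a, Fbxo15 and Dnmt3l are lower.

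Other lineages moved less evenly. Trophoblast markers were lower for 12 of 16 and higher for 1 (median -0.74): Hand1, a bHLH factor of giant cells, fell from 10.2 ± 0.95 to 2.23 ± 0.50 CPM, Cdx2 from 1.98 ± 0.15 to 0.53 ± 0.15 CPM, and the simple keratin Krt18 from 96.2 ± 11.4 to 38.2 ± 0.81 CPM. Eomes, shared by trophoblast and the primitive streak, rose from 8.56 ± 0.28 to 13.6 ± 0.56 CPM. Streak and mesoderm genes were mostly not called, with 5 lower and 1 higher of 17. Among 12 neural genes 4 were higher and 2 lower (1 lower with DESeq2), led by Sox1 on chromosome 8 (2.01 ± 0.855 to 5.14 ± 0.606 CPM). Hox genes were near the floor of detection, with a median of 0.70 CPM in control libraries. Of 24, 8 were lower and none higher, such as Hoxd4 at 0.49, 0.47 and 0.46 CPM against 0.18, 0.07 and 0.08 CPM, and 3 were lower when genes had to reach 1 CPM in 3 libraries. Of 10 fibroblast markers 6 were tested, with 2 higher (1 with DESeq2 or without Tnrc6a Ctrl replicate 2, Ctrl replicate 3 or Tnrc6a Trim71-/- replicate 1) and 2 lower (1 without Tnrc6a Ctrl replicate 3 or Tnrc6a Trim71-/- replicate 3) and a summed level of 30.2 to 35 CPM in control and 29.9 to 33.0 CPM in Trim71-/- libraries, and none of 5 tested blood markers was called (1 higher without Tnrc6a Trim71-/- replicate 1), with summed levels of 20.2 to 23.1 and 21.0 to 24.3 CPM.

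Genes of naive pluripotency rose while those of the formative state fell. Of 20 naive genes, 14 were higher and 5 lower, with a median of 0.48. Zfp42 (Rex1), on chromosome 8, went from 405, 417 and 429 CPM to 972, 971 and 958 CPM, a log2 fold change of 1.21 ± 0.03, above the 0.51 of its chromosome. Esrrb, an orphan receptor that sustains self-renewal, went from 512, 506 and 533 CPM to 927, 901 and 903 CPM (0.82 ± 0.03, adjusted p = 1.1e-23). Nanog went from 487, 500 and 508 CPM to 806, 793 and 783 CPM (0.67 ± 0.03). The Trim71-/- libraries were thus all above all control libraries for these regulators. Fgf4 rose 1.80-fold, Tcl1 1.77-fold, Nr5a2 1.66-fold and Klf4 1.53-fold. The exceptions were Dppa3 (1.22 to 0.46 CPM), Fbxo15 (254 ± 6.05 to 157 ± 4.06 CPM) and the LIF receptor arm with Lifr, Il6st and Socs3, whose log2 fold changes were -0.38, -0.40 and -0.33.

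The broader set of ES cell identity genes split, with 6 of 15 higher and 9 lower (median -0.22). Pou5f1 (Oct4) was at 710 ± 36.2 and 781 ± 11.6 CPM, a log2 fold change of 0.14 that was not called without Tnrc6a Ctrl replicate 3 or Tnrc6a Trim71-/- replicate 2 (adjusted p of 0.051 and 0.059). Sox2 rose from 300 ± 11.2 to 410 ± 6.79 CPM. Lin28a, the let-7 blocker, fell from 124, 115 and 115 CPM to 64.7, 63.2 and 60.7 CPM (-0.91 ± 0.04), opposite to its paralog Lin28b in the chromosome 10 block. Dppa2 fell 1.74-fold, Dppa5a 1.72-fold and Sall4 1.49-fold, and Cdh1 (E-cadherin, chromosome 8) rose 1.62-fold. Lncenc1, a long noncoding RNA abundant in naive cells, went against most of the naive genes above and fell from 54.6 ± 1.05 to 6.87 ± 0.88 CPM.

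Of 10 formative and primed genes tested, 9 were lower and 1 was higher (median -0.63). Lef1 fell from 1.92 ± 0.40 to 0.44 ± 0.17 CPM, Pou3f1 (Oct6) from 7.51 ± 0.44 to 2.86 ± 0.29 CPM, and Zic2 2.01-fold. The de novo DNA methylation enzymes belonged to this fall. Dnmt3l, the catalytically inactive cofactor, went from 228, 223 and 224 CPM to 77.4, 72.3 and 72.3 CPM (-1.60 ± 0.04), Dnmt3b from 119 ± 3.05 to 72.5 ± 1.21 CPM and Dnmt3a from 116 ± 1.94 to 79.6 ± 0.80 CPM. On the side that opposes or guards methylation marks, Tet2 rose from 101 ± 6.40 to 180 ± 8.59 CPM and Zfp57, which protects imprints, from 350 ± 9.20 to 599 ± 13 CPM. Of 17 genes of methylation and demethylation in all, 7 were lower and 4 higher.

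Interferon-stimulated genes gave 10 higher and 5 lower of 23 (median 0.12), with 7 of the risers at least 2-fold. In cells, interferon or sensed double-stranded RNA activates factors that bind a repeat of GAAA spaced by 2 bases, the interferon-stimulated response element. To show it beside the values, the 250 bases before each start site (RefSeq, GRCm38.p6) were searched for GAAANNGAAA on both strands (TTTCNNTTTC on the printed strand), where overlapping matches were all marked. It occurred in 370 of 12326 tested genes with a promoter (3.00%). Of the interferon genes with a promoter it occurred in 4 of 9 that were higher, in 2 of 5 that were lower and in 2 of 7 that were not called. The 30 bases around the matches are shown for the 3 strongest risers and for 1 gene that fell, because the same motif stands before both, with matches in capitals:
Ifit1, chr19:34640785-34640814, plus strand: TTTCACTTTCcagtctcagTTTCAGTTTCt
Rsad2, chr12:26456553-26456582, minus strand: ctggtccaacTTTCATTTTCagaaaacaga
Isg15, chr4:156200871-156200900, minus strand: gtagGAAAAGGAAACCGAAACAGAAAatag
Bst2, chr8:71537580-71537609, minus strand: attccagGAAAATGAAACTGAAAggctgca

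Oasl1, an oligoadenylate synthetase-like protein, was the interferon gene with the largest shift among those of at least 20 CPM, from 7.86, 7.66 and 7.53 CPM to 34.0, 29.0 and 28.7 CPM (1.99 ± 0.09, adjusted p = 1.2e-21). Ifit1, which binds uncapped or unmethylated RNA ends, went from 0.38, 0.18 and 0.33 CPM to 2.13, 1.77 and 2.17 CPM, and Rsad2 (viperin) from 0.66, 0.76 and 0.76 CPM to 3.79, 4.01 and 3.90 CPM. Isg15, a ubiquitin-like modifier, went from 0.77, 0.68 and 0.93 CPM to 3.86, 3.35 and 3.51 CPM. Groups did not overlap, but apart from Oasl1 and Xaf1 (14.2 ± 0.39 to 29.6 ± 0.59 CPM) the strong risers stayed under 5 CPM. Ifit2 rose 2.69-fold and Oasl2 2.48-fold. Stat2, whose promoter also holds the motif, moved from 50.6 ± 2.00 to 58.1 ± 3.17 CPM, a call lost without Tnrc6a Trim71-/- replicate 1 (adjusted p = 0.062). The membrane proteins went the other way: Ifitm1 fell from 16.8 ± 1.96 to 6.34 ± 1.40 CPM and Bst2 (tetherin, chromosome 8) from 15.5 ± 0.44 to 11 ± 1.02 CPM.

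**Figure D3:**
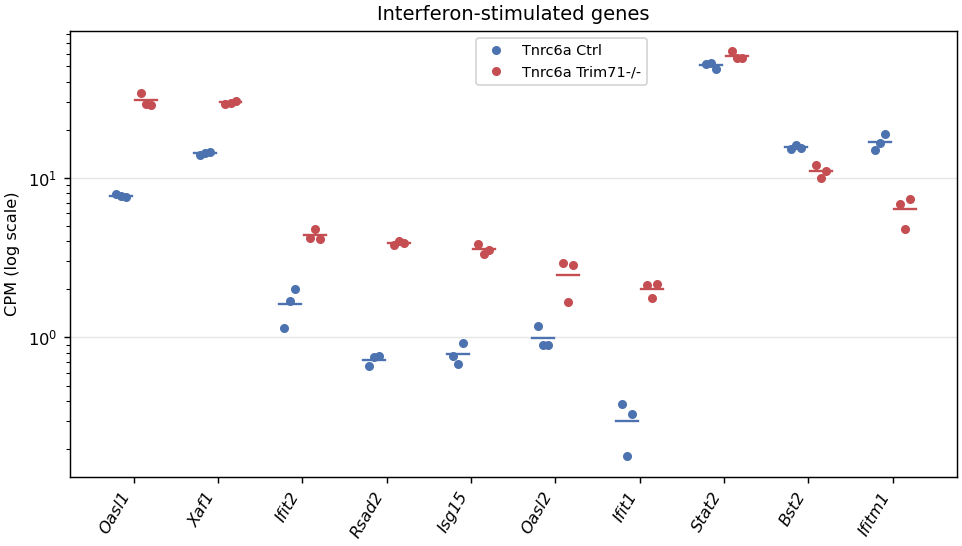
CPM on a log axis of 10 interferon-stimulated genes in 3 Tnrc6a Ctrl (blue) and 3 Tnrc6a Trim71-/- (red) libraries, with a bar at each mean. Oasl1 and Xaf1 rise to about 30 CPM, Ifit2, Rsad2, Isg15, Oasl2 and Ifit1 rise from under 2.1 CPM to under 5 CPM, and Bst2 and Ifitm1 are lower in every Trim71-/- library.

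Among 24 genes of the Nodal, activin and TGF-beta branch 8 were higher and 9 lower (median -0.01), and the higher ones numbered 5 without Tnrc6a Ctrl replicate 1. Inhbb, the subunit of activin B, went from 59.8, 61.5 and 64.5 CPM to 269, 266 and 271 CPM, a log2 fold change of 2.12 ± 0.04 (adjusted p = 4.4e-36). The Nodal antagonist Lefty2 rose from 4.33 ± 0.61 to 8.37 ± 0.71 CPM and the Nodal co-receptor Tdgf1 from 291 ± 7.32 to 398 ± 3.64 CPM. In the BMP pathway 5 of 24 were higher (2 without Tnrc6a Ctrl replicate 2) and 8 lower. Bmper, a secreted BMP binder, fell from 6.43 ± 0.71 to 0.46 ± 0.21 CPM, and the ligands Bmp6, Bmp2 and Bmp8b fell 3.62-fold, 3.13-fold and 3.08-fold, whereas Bmp4 rose from 26.9 ± 1.35 to 44.7 ± 1.13 CPM.

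In the Wnt pathway 8 of 28 ligands and receptors were lower and 7 higher, the latter 4 without Tnrc6a Ctrl replicate 1. Over all genes tested 19% were lower and 20% higher. Of 13 response genes 6 were lower, among them Axin2, the feedback scaffold used as a readout of the pathway, at 15.6, 18.2 and 17.7 CPM against 9.13, 8.25 and 8.91 CPM (-0.97 ± 0.09). Sp5, a direct target, fell from 2.43 ± 0.07 to 0.77 ± 0.20 CPM. Nkd1, on chromosome 8, was the 1 response gene called higher (0.37), and it was not called with DESeq2, with other scaling factors, with a replicate block, or without Tnrc6a Ctrl replicate 1 or 3 or without Tnrc6a Trim71-/- replicate 1 or 3. Secreted inhibitors parted: Dkk1, made by visceral endoderm, fell from 3.47 ± 0.665 to 0.349 ± 0.0514 CPM, Notum rose from 7.19 ± 0.74 to 13 ± 0.65 CPM, and Sfrp1, on chromosome 8, rose 2.89-fold from 63.0 ± 3.60 to 182 ± 6.96 CPM.

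FGF ligands also parted. Fgf10 fell 3.96-fold from 5.34 ± 0.32 CPM, Fgf17 rose from 2.44, 3.27 and 3.48 CPM to 9.45, 9.02 and 10.2 CPM, and Fgf15 rose from 1.85 ± 0.425 to 3.03 ± 0.525 CPM. Of 23 feedback and immediate early genes of ERK, the kinase downstream of FGF receptors, 6 were higher and 7 lower. Ier2 (chromosome 8) rose 1.79-fold, Spry4 rose from 107 ± 1.57 to 143 ± 3.65 CPM, Spry2 fell from 91.2 ± 4.66 to 65.3 ± 2.16 CPM and Dusp4, on chromosome 8, from 25.1 ± 0.51 to 18 ± 0.88 CPM. Of 13 Hedgehog pathway genes 4 were higher and 3 lower (median -0.00), beside 20% higher and 19% lower over all genes tested. The higher ones included the effector Gli1, at 32.7, 34.7 and 33.7 CPM against 80.4, 78.9 and 84.5 CPM (1.27 ± 0.05), the receptor Ptch1 (82.3 ± 2.46 to 113 ± 2.43 CPM) and the inhibitor Hhip on chromosome 8 (3.09 ± 0.24 to 10.2 ± 0.59 CPM), and the lower ones were Ihh, Gli3 and Boc.

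Of 17 Notch genes 10 were lower, led by the ligand Dll1 (2.95 ± 0.355 to 1.18 ± 0.138 CPM), and 2 were higher, Hes1 (49.0 ± 1.75 to 73.8 ± 1.17 CPM) and Hes6. The Hes6 call was lost with relative log expression factors, with DESeq2 and in 5 of the 6 fits that left out a library. In the retinoid pathway 8 of 19 were lower and 2 higher: Stra6, the receptor that imports retinol, fell from 2.77 ± 0.284 to 0.225 ± 0.040 CPM and Cyp26a1, which degrades retinoic acid, from 1.13 ± 0.15 to 0.24 ± 0.08 CPM. Of 16 genes tied to YAP and TEAD 10 were lower, such as tissue factor F3 (24.4 ± 1.36 to 7.89 ± 1.05 CPM), and 2 were higher (1 with DESeq2 and none without Tnrc6a Ctrl replicate 1). Among Eph receptors, ephrins and semaphorins 7 of 24 were higher and 6 lower, with Epha4 at 39.3 ± 2.63 and 105 ± 2.69 CPM.

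Of the 12 largest rises among named genes of at least 20 CPM, which include Ccr4, Inhbb and Oasl1, 5 lie on chromosome 8: Cpe (carboxypeptidase E, 6.12 ± 0.15 to 51.9 ± 1.41 CPM, 8.46-fold), Kbtbd11 (57.6 ± 2.49 to 203 ± 5.85 CPM), Sfrp1, the quinone reductase Nqo1 (25.1 ± 0.52 to 70.2 ± 1.08 CPM) and Mcf2l. Each exceeded the 1.43-fold of its chromosome, but they were chosen for the size of their rise, so this is no separate finding. Sgk1, a kinase induced by serum and glucocorticoids, lies on chromosome 10 between 20 and 25 Mb and went from 124, 122 and 122 CPM to 462, 457 and 470 CPM. The others were Adgrb1 (10.8 ± 0.73 to 35.9 ± 1.65 CPM), Dlgap3 (36.9 ± 0.29 to 106 ± 1.28 CPM) and the guidance cue Ntn1 (39.9 ± 3.13 to 113 ± 6.97 CPM). The 12 largest falls also held, besides Lncenc1, Glipr2 (38.0 ± 1.28 to 7.74 ± 0.31 CPM) and the sialomucin Podxl (31.2 ± 0.925 to 7.71 ± 0.209 CPM).

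Genes of the early embryo and germ line also changed as families. Pramel genes, a multicopy family of leucine-rich proteins active at cleavage stages, were lower for 25 of 30 and higher for none (median -1.27). Pramel19, for example, fell 5.58-fold to 1.79 ± 0.11 CPM. Of 18 genes of the 2-cell-like state 16 were lower, all by at least 2-fold, and 1 was higher (median -1.49). Zscan4c went from 159, 147 and 158 CPM to 57.9, 53.6 and 52.2 CPM (-1.50 ± 0.05), Tmem92 from 13.9 ± 0.73 to 2.57 ± 0.22 CPM and Eif1ad8 from 110 ± 2.18 to 51.8 ± 1.97 CPM. Copies within the Zscan4, Pramel and Eif1ad families are nearly identical, so the counts cannot be assigned with certainty to single members.

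X-linked multicopy and testis genes rose, with 11 of 17 higher and none lower (median 0.80). Xlr3a went from 1.01, 1.19 and 1.29 CPM to 10.2, 8.87 and 10.3 CPM and Xlr4a from 0.39 ± 0.03 to 4.27 ± 0.16 CPM, where near-identical copies again share reads. Germ cell and meiosis genes fell for 11 of 20 and rose for 2. Stra8, the gatekeeper of meiosis, fell from 27.1 ± 1.16 to 8.84 ± 0.64 CPM, and the transposon-control genes Tdrd12 and Mael fell 2.46-fold and 2.17-fold, while Prdm1 rose within the chromosome 10 block. Of 24 imprinted genes 14 were lower and 3 higher. H19 and Igf2, neighbours on chromosome 7, fell 3.17-fold and 3.03-fold, and Igf2 shares exons with a readthrough transcript that was counted separately. Dlk1 fell from 7.07 ± 0.43 to 2.42 ± 0.08 CPM, Mest rose from 43.0 ± 2.96 to 83.0 ± 1.74 CPM and Usp29 from 0.91 ± 0.27 to 2.17 ± 0.40 CPM.

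**Figure D4:**
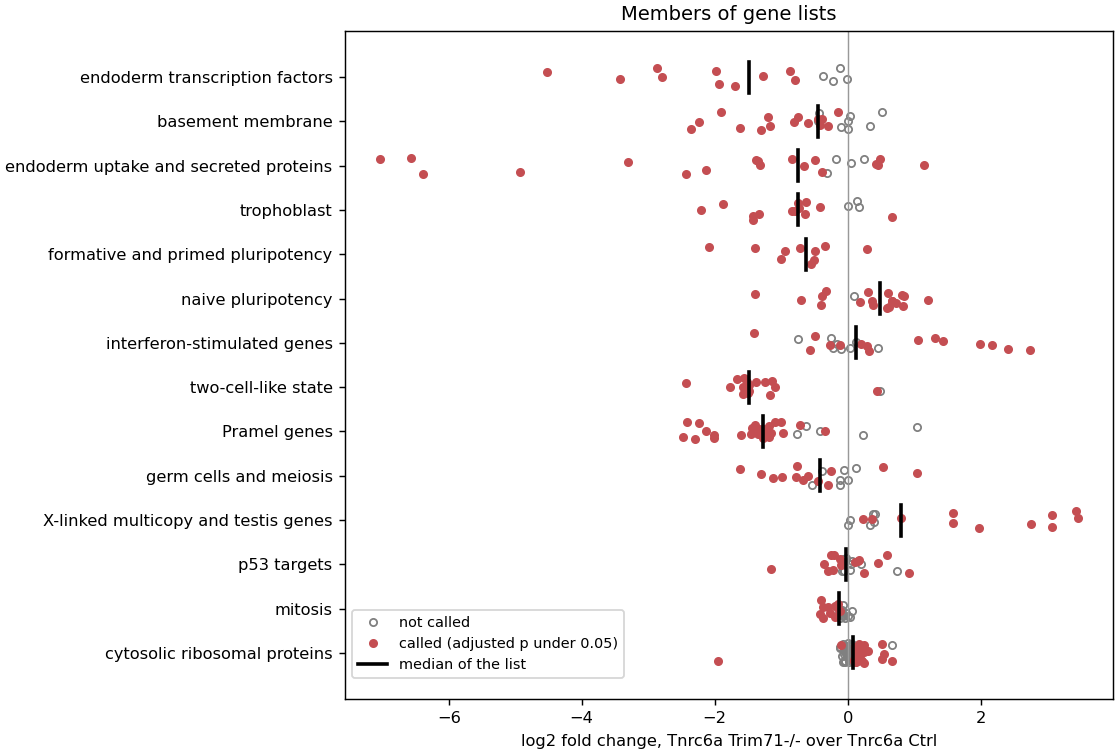
Log2 fold change of Tnrc6a Trim71-/- over Tnrc6a Ctrl for each tested member of 14 gene lists. Filled points are called (adjusted p under 0.05), open points are not, and black bars are list medians, which run from -1.49 for the 2-cell-like genes and -1.48 for the endoderm factors to 0.80 for the X-linked genes, with ribosomal proteins at 0.08.

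Lists of growth genes had medians near 0. Of 25 p53 targets 7 were higher and 8 lower (median -0.03). Pmaip1 (Noxa), which promotes apoptosis, fell from 88.3, 90.7 and 87.3 CPM to 40.2, 41.2 and 38.5 CPM, Btg2 rose from 191 ± 1.68 to 262 ± 7.37 CPM and Perp from 46.5 ± 3.45 to 88.5 ± 2.56 CPM, while Mdm2 and Trp53 themselves were not called. Among G1 to S genes 10 of 29 were higher and 9 lower. Cyclin E1 (Ccne1) fell from 112 ± 1.97 to 65 ± 2.24 CPM, and the E2F partner Rbl1 rose from 26.0 ± 1.98 to 38.2 ± 0.96 CPM. No mitotic gene of 22 was higher and 11 were lower by modest amounts, such as Kif20a (-0.41), Cdc25c (-0.41) and Cdc20 (-0.37). Of 24 glycolysis and hypoxia genes 10 were lower and 3 higher, with the hexokinase-like Hkdc1, on chromosome 10 between 50 and 65 Mb, falling from 3.66 ± 0.92 to 0.24 ± 0.08 CPM and Bnip3 2.01-fold. Threonine dehydrogenase (Tdh), on which mouse ES cells rely, rose from 231, 232 and 229 CPM to 395, 394 and 390 CPM.

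Cytosolic ribosomal protein genes had 32 of 86 higher and 2 lower with a median of 0.08, and without Tnrc6a Ctrl replicate 2, Ctrl replicate 3 or Tnrc6a Trim71-/- replicate 2 the higher ones were 19, 20 and 21. DESeq2 called 20 higher and 5 lower. The largest change was in Rpl39l, a paralog restricted to few tissues, which fell from 35.4 ± 1.54 to 9.12 ± 0.85 CPM. Nuclear genes of respiratory complexes had 32 of 104 higher and 9 lower (median 0.06), with 20 higher by DESeq2 and 21 without Tnrc6a Ctrl replicate 2 or Tnrc6a Trim71-/- replicate 2. Without Tnrc6a Trim71-/- replicate 1 the lower ones were 3. Cox4i1, on chromosome 8, rose 1.66-fold and its hypoxic isoform Cox4i2 fell from 2.23 ± 0.42 to 1.03 ± 0.55 CPM. The 22 protocadherin gamma genes were all called higher by 0.14 to 0.20, but they share constant exons and read as 1 locus, and 4 and 1 of them were called without Tnrc6a Ctrl replicate 1 and 2.

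Per kilobase, which allows levels of different genes to be set side by side, the largest gains in deposited RPKM were in the mitochondrial COX2 (2488 ± 196 to 2912 ± 85.6 RPKM), Eef1a1 (2012 ± 26.0 to 2400.5 ± 14.7 RPKM), Mt2, a metallothionein on chromosome 8 (228 ± 12.3 to 611 ± 12.2 RPKM), Ptma (862 ± 21.6 to 1169 ± 46.4 RPKM), Zfp42 (222 ± 6.39 to 514 ± 4.09 RPKM) and Ftl1 (781 ± 38.1 to 1005 ± 5.43 RPKM). The largest losses were in Dppa5a (468 ± 22.8 to 272 ± 5.43 RPKM), Hspb1 (501 ± 19.2 to 394 ± 3.95 RPKM), Actb (608 ± 8.14 to 508 ± 13.6 RPKM), Sparc, Bex1 (292 ± 11.2 to 219 ± 5.22 RPKM) and Hsp25-ps1, a processed copy of Hspb1 that may share its reads. As log2 differences the COX2, Eef1a1 and Actb changes were small, at 0.23, 0.26 and -0.26.

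Of 6 mRNAs reported elsewhere as TRIM71 targets 5 were higher and none lower (median 0.57). Plxnb2 went from 97.2, 95.9 and 102 CPM to 220, 209 and 219 CPM (1.14 ± 0.04), Mbnl1, a splicing regulator, from 12.2, 13.6 and 14 CPM to 24.3, 26.7 and 25 CPM, and Rbl1, Rbl2 (chromosome 8) and Cdkn1a rose 1.47-fold, 1.5-fold and 1.13-fold. The sixth, Egr1, was at 17.7, 20.6 and 21.0 CPM and at 18.3, 18.6 and 15.3 CPM. It was not called (adjusted p = 0.092), and it was called lower without Tnrc6a Ctrl replicate 1 or Tnrc6a Trim71-/- replicate 2 (adjusted p of 0.012 and 0.042). The list was known from earlier work on this protein and its direction in these data was known when it was chosen.

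Over all genes tested 20% were higher and 19% lower, which is the background for the counts in this paragraph. Of 16 genes of small-RNA processing and Argonaute function 3 were higher and 4 lower (2 lower without Tnrc6a Ctrl replicate 3). The nuclease Drosha was at 189 ± 0.56 and 231 ± 4.77 CPM, the uridylated-RNA exonuclease Dis3l2 at 21.7 ± 2.00 and 27.3 ± 1.01 CPM and the Dicer partner Tarbp2 at 54.4 ± 2.03 and 42.7 ± 1.84 CPM. Of 26 deadenylation and decapping genes 8 were higher and 5 lower (3 lower without Tnrc6a Ctrl replicate 3 or Tnrc6a Trim71-/- replicate 3), and 4 of the 8 lie on chromosome 8, including the deadenylase Cnot7 (83.4 ± 1.91 to 127 ± 6.21 CPM) and its scaffold Cnot1 (360 ± 35.1 to 480 ± 21.4 CPM). In nonsense-mediated decay 5 of 18 were higher, of which Upf3a and Upf1 lie on chromosome 8, and 4 lower. Of 19 let-7 targets 7 were higher and 8 lower (5 lower without Tnrc6a Ctrl replicate 3). Arid3a fell 1.89-fold, and among the risers was Lin28b on chromosome 10 (1.70-fold).

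Whether the difference was the same in the Tnrc6a and Cas9 groups was tested by the interaction, the Trim71-/- effect with Tnrc6a minus that with Cas9. Each group is a set of wells that may come from 1 clone. Tnrc6a and the cell line therefore cannot be told apart in the interaction. Of 20486 genes 1419 were called (6.93%), 958 of them positive (4.68%) and 461 negative (2.25%). With relative log expression factors the split was 768 and 613 and with DESeq2 710 and 571, and the positive ones were 548, 543 and 584 without Tnrc6a Ctrl replicate 1, Ctrl replicate 2 or Tnrc6a Trim71-/- replicate 2. With Cas9 alone 7403 genes were called for Trim71-/- (36.1%). Of 14 endoderm factors 1 had a positive and 1 a negative interaction (3 negative with relative log expression factors), with a median effect of -1.48 with Tnrc6a and -0.71 with Cas9. Gata6 fell less with Tnrc6a (interaction 1.14 ± 0.20) and Sox7 (-1.29 ± 0.23) and Lamb1 (-0.71 ± 0.07) fell more.

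On the log2 scale naive genes rose more with Tnrc6a. Of 20, 13 had a positive and 3 a negative interaction, and all scaling factors tried kept 13 positive. Without Tnrc6a Ctrl replicate 1 or 2 the positive ones were 10 and 11. Esrrb rose by 0.82 with Tnrc6a and by 0.32 with Cas9 (interaction 0.50 ± 0.05), Fgf4 by 0.85 and 0.42 (0.43 ± 0.06), Zfp42 by 1.21 and 0.84 (0.37 ± 0.05) and Inhbb by 2.12 and 1.14 (0.98 ± 0.05). Kbtbd11 and Sgk1 likewise rose more, with interactions of 1.02 ± 0.06 and 0.60 ± 0.05. Inhbb went from 61.9 ± 2.42 to 269 ± 2.38 CPM with Tnrc6a and from 225 ± 4.54 to 495 ± 9.10 CPM with Cas9. In CPM its rise and its end level were thus lower with Tnrc6a. The same held for Sgk1 (123 to 463 CPM with Tnrc6a, 243 to 602 CPM with Cas9), while Kbtbd11 and Zfp42 rose further in CPM with Tnrc6a. Genes of the 2-cell-like state fell less on the log2 scale: 10 of 18 had a positive interaction and none a negative one. Their median was -1.49 with Tnrc6a and -2.92 with Cas9. In CPM, Zscan4c fell further with Tnrc6a (155 to 54.6 CPM) than with Cas9 (6.81 to 0.46 CPM). So did Zscan4d (125 to 55.2 CPM with Tnrc6a, 5.37 to 0.39 CPM with Cas9). Both genes thus started far lower with Cas9 and ended near the floor of detection there. Zscan4d, Zscan4c and the copies Zscan4-ps1, Zscan4-ps2 and Zscan4-ps3 had interactions of 2.51, 2.32, 2.41, 2.36 and 2.31.

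Genes downstream of ERK and p53 differed in the same direction. Of 23 ERK feedback and immediate early genes 13 had a positive interaction (8 without Tnrc6a Ctrl replicate 2) and none a negative one, and 15 were lower with Cas9 against 7 with Tnrc6a. Egr1 fell by 2.03 on the log2 scale with Cas9 and by 0.18 with Tnrc6a, where it was not called (interaction 1.84 ± 0.12, adjusted p = 9.6e-13). Spry4 was higher with Tnrc6a and lower with Cas9 (0.42 and -0.14), as was Fgf15 (0.72 and -0.55). Of 25 p53 targets 16 had a positive interaction and none a negative one. The positive ones were 11 without Tnrc6a Ctrl replicate 1 or 2 and 13 with relative log expression factors. Pmaip1 fell by 1.15 with Tnrc6a and by 1.97 with Cas9 (0.82 ± 0.08), and Mdm2 stood at 0.03 and -0.28 (0.32 ± 0.05). In the Nodal branch 7 of 24 had a positive interaction (4 without Tnrc6a Ctrl replicate 1). The protocadherin gamma genes, which read as 1 locus, had a median of 0.17 with Tnrc6a and -0.21 with Cas9.

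Changes that were larger downwards with Tnrc6a, or smaller upwards, included Krt8, which fell by 0.79 with Tnrc6a and rose by 0.42 with Cas9 (interaction -1.21 ± 0.09), and Krt18, which fell by 1.33 and by 0.33 (-1.0 ± 0.13). Igf2 fell by 1.6 and by 0.35 (-1.25 ± 0.15), Axin2 by 0.97 and by 0.33 (-0.64 ± 0.14), and Rhox5, an X-linked homeobox gene, rose by 0.37 with Tnrc6a and by 1.76 with Cas9 (-1.39 ± 0.13). The de novo methyltransferases went apart, since Dnmt3a fell less with Tnrc6a (0.58 ± 0.06) and Dnmt3b fell more (-0.43 ± 0.06). Ccr4, next to Trim71, rose less in log2 terms with Tnrc6a than with Cas9 (4.77 and 5.86), a difference no longer called without Cas9 Ctrl replicate 3 (adjusted p = 0.14).

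**Figure D5:**
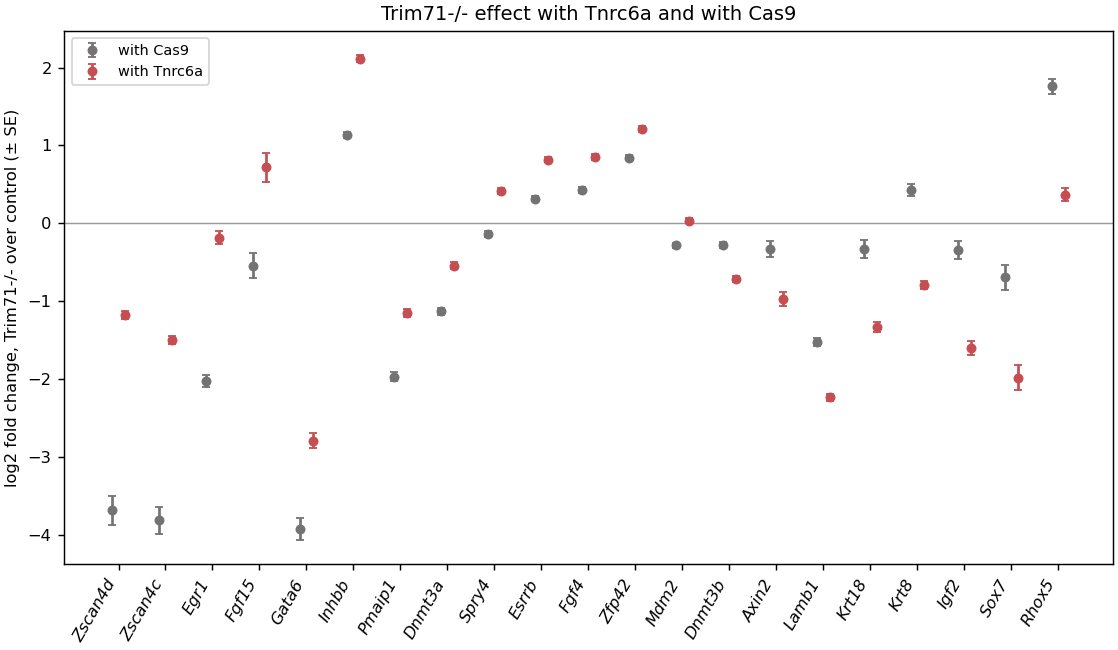
Log2 fold change of Trim71-/- over control with Cas9 (grey) and with Tnrc6a (red), for 21 genes ordered from the most positive to the most negative interaction. Bars are ± approximate standard error, back-calculated from the F value of the edgeR fit of all 12 libraries, 3 per group. On the log2 scale Zscan4d and Zscan4c at the left fell less with Tnrc6a and naive genes in the middle rose more. Krt8, Igf2, Sox7 and Rhox5 at the right had lower values with Tnrc6a.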

How the data were processed

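Total RNA-seq of 12 libraries was used, 3 per group, with the 6 Tnrc6a libraries forming the comparison. Per the submitters' processing notes, reads were handled with bcl2fastq 2.20 and STAR 2.7.3a on builds named GRCm38 and mm10; the counter, its strand setting and the annotation release were not stated. The authors deposited raw counts per gene, RPKM values and a gene length in bases. Counts were fitted with edgeR 4.0.16 (R 4.3.3) across all 12 libraries, with trimmed mean of M values factors, filterByExpr and the robust quasi-likelihood test, and adjusted p-values by Benjamini-Hochberg. DESeq2 1.42.0, other scaling factors, other filters, a replicate block, a fit on the 6 Tnrc6a libraries and fits leaving out each library were alternatives. Deposited RPKM served only to set levels of different genes side by side. Total counts of the 6 libraries ran from 24303863 to 28372422, and replicate libraries differed by more than sampling noise. The fit was also run on simulated data with known changes, and the outcome is not reported here. Named genes were label genes, the 12 largest rises and falls of at least 20 CPM without overlap, the 6 largest RPKM rises and falls, up to 8 called members per list with the largest change, and the 8 most positive and negative interactions at 5 CPM or more, skipping placeholder names. Members, lists and text examples were chosen with earlier results of these data known. Genes that overlap on opposite strands cannot be told apart if strand was not used. Examples are Cox4i1 with Emc8, Rbl2 with Aktip, Mest with Copg2, Kif20a with Cdc23, Ago2 with Chrac1 and Bmp8b with Ppie. Col4a1 with Col4a2, Cdc20 with Elovl1, Bmp6 with Txndc5 and Atxn1 with Gmpr overlap in the same way, and the list is not complete. A few single genes are not reported here.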

Additional observations from a re-analysis of the deposited data

Results flagged for a closer look

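The Trim71-/- effect differed between Tnrc6a and Cas9 for 1419 genes by edgeR's interaction test. The interaction is the log2 effect with Tnrc6a minus that with Cas9. Among genes named in the report or by the rule for the largest interactions, it was positive for Spopfm1 (3.03), Zscan4d (2.51), Zscan4-ps1 (2.41), Zscan4-ps2 (2.36), Dcc (2.35), Zscan4c (2.32), Zscan4-ps3 (2.31), Ccser1 (2.28), Egr1 (1.84), Fgf15 (1.26), Gata6 (1.14), Kbtbd11 (1.02), Inhbb (0.98), Pmaip1 (0.82), Sgk1 (0.60), Dnmt3a (0.58), Spry4 (0.56), Esrrb (0.50), Fgf4 (0.43), Zfp42 (0.37) and Mdm2 (0.32). It was negative for Rhox5 (-1.39), Lrp2 (-1.37), Bmp8b (-1.30), Sox7 (-1.29), Igf2 (-1.25), Atxn1 (-1.23), Krt8 (-1.21), Dok2 (-1.18), Ccr4 (-1.09), Krt18 (-1.0), Lamb1 (-0.71), Axin2 (-0.64) and Dnmt3b (-0.43). Ccr4, Lrp2, Bmp8b, Spopfm1, Dcc, Ccser1 and Atxn1 lost the interaction call when at least 1 library was left out, and Dcc also with other scaling factors. Spopfm1, Dcc and Ccser1 were near the floor of detection with Cas9. Their means there were 0.33, 0.30 and 0.39 CPM in control and 0.015, 0.027 and 0.057 CPM in Trim71-/- libraries. With Tnrc6a all of them also fell, with log2 fold changes of -1.15, -0.97 and -0.49. By list, a positive interaction was called for 13 of 20 naive genes, 10 of 18 genes of the 2-cell-like state and 13 of 23 ERK feedback and immediate early genes. It was also called for 16 of 25 p53 targets and 7 of 24 Nodal, activin and TGF-beta genes. Over all genes tested 4.68% were positive and 2.25% negative. Of these lists only the naive genes held negative ones, 3 of 20. Leaving out a library, the lowest positive counts were 10 naive, 8 2-cell-like, 8 ERK, 11 p53 and 4 Nodal genes.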

How the results depend on the processing

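No gene value tracked across settings changed sign while called. The chromosome 8 median of 0.51 was 0.49 with relative log expression factors, with DESeq2 and over genes of at least 1 CPM, 0.51 with upper-quartile factors, and 0.48 to 0.51 leaving out each library. The chromosome 10 median of 0.70 from 25 to 50 Mb was 0.67 with relative log expression factors and with DESeq2, 0.68 over genes of at least 1 CPM, and 0.65 to 0.70 leaving out each library; this segment was chosen after seeing the data. The genes with a positive interaction were 543 to 949 leaving out each library, against 958; the lowest values were 543 without Tnrc6a Ctrl replicate 2, 548 without Tnrc6a Ctrl replicate 1 and 584 without Tnrc6a Trim71-/- replicate 2, and the cause was not tested. For the Tnrc6a comparison the split of 4104 higher and 3901 lower turned to more lower than higher with other scaling. It was 3577 and 4413 with relative log expression factors, 3297 and 4040 with DESeq2, and 3926 and 4049 with upper-quartile factors. The same turn came without Tnrc6a Ctrl replicate 1 (3204 and 3822), Ctrl replicate 2 (3149 and 3827) or Tnrc6a Trim71-/- replicate 2 (3139 and 3816). Leaving out any other Tnrc6a library kept more higher than lower. Deviations of same-numbered libraries correlated weakly over genes above 5 CPM, at 0.0123, 0.00751 and 0.0965, and a replicate block gave 7851 calls and 1335 interaction calls. These correlations cannot show that no single gene shifted with the replicate number. Ago2, for example, had an edgeR adjusted p of 0.11 in the main fit and 0.00088 with the block. Of 202 genes tracked across settings, which do not include Nkd1 and Hes6, 9 gained or lost their call with Tnrc6a in some setting, and of 34 tracked for the interaction 7 lost it. The precision of genes with few reads, such as S100g, is limited by depth.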
